A study of Mus musculus with 14 samples.

Results

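Mouse trophoblast stem cells (TSC), which derive from the trophectoderm of the blastocyst, were treated with STM2457 or with its solvent DMSO, and every gene of the deposited count table was compared between the arms. The comparison used 4 of the 14 libraries of the series, 2 per arm, chosen by the line and treatment in their labels. STM2457 is a small-molecule inhibitor of METTL3, the catalytic subunit of the complex that writes N6-methyladenosine (m6A) on RNA. It was given at 50 µM for 12 h, and the cells had been plated on the previous day. All 4 libraries carry the genotype label WT and the strain label Hybrid (Mus molossinus X Mus musculus), and the labels give a single cell line, named TSC. The cells grew in RPMI conditioned by mouse embryonic fibroblasts (MEF) with serum and Fgf4. Total RNA went into a stranded total RNA kit. Epiblast stem cells (EpiSC, genotype XmolXmus-ΔTsix, 2 libraries per arm) and extraembryonic endoderm cells (XEN, genotype WT, 3 per arm) of the same hybrid background received the same inhibitor and solvent, and serve only as comparison. The labels do not say that replicates came from separate cultures. The p-values therefore reflect no more than the spread between these samples, and that spread may be technical.

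m6A is placed on messenger RNA while it is being made, mostly in long exons and away from exon junctions. Reader proteins of the YTH family bind the mark and, in the cytoplasm, bring the RNA to deadenylases and to decay, so a modified transcript tends to be short-lived. TSC depend on FGF signalling and on a set of transcription factors that includes Cdx2, Eomes and Elf5, and they can form the trophoblast cell types of the placenta.

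Library totals ran from 17909934 to 20354242 counts, and 20401 to 20822 genes had at least 1 count. Levels are given as CPM, the usual depth-normalised counts, with library sizes scaled by the TMM method of edgeR, and n = 2 libraries per arm throughout. Replicates differed by more than sampling noise: the chi-square of their counts per degree of freedom was 5.32 for the DMSO pair and 2.25 for the STM2457 pair. The defining regulators of trophoblast stem cells were present in every library. Cdx2 stood at 80.5 and 75.2 CPM with DMSO and 104 and 98.0 CPM with STM2457, Eomes at 379 and 351 against 403 and 402 CPM, and Elf5 at 178 and 187 against 172 and 168 CPM. Pou5f1, which marks epiblast cells, and all 7 Y-linked genes examined had 0 counts in the 4 libraries, which allows at most 0.147 to 0.168 CPM per library. Markers of other cells were measured as whole lists. Of 21 primitive endoderm markers 20 had a count, and 14 passed the filter on low counts. Of these 14, 5 were called higher with STM2457, but 0 were called by DESeq2. The 5 calls did not hold on leaving out single libraries. Among all tested genes 16.3% rose and 13.9% fell. The summed level of the 21 was 1064 to 1069 CPM with DMSO and 1080 to 1100 CPM with STM2457. Most of this sum came from Sparc, at 356 to 398 CPM, and from Lamc1, Col4a1, Col4a2 and Lamb1. The marker at 0 was Ttr, and Sox17 had 2 counts in each library. Gata4 stood at 24.9 and 22.8 CPM with DMSO and 27.4 and 26.8 CPM with STM2457, and Gata6 at 2.83 and 3.21 against 4.59 and 4.45 CPM. The 16 epiblast markers summed to 1102 to 1178 CPM with DMSO and 1064 to 1071 CPM with STM2457. Most of this sum came from Utf1, at 528 to 585 CPM, and from Pou3f1 and Dnmt3b. Of the 16 markers 9 passed the filter on low counts. Of these 2 were called lower: Sox3 at -0.38 ± 0.11 (adjusted p = 0.0148, and 0.0655 without DMSO replicate 1 and 0.113 without STM2457 replicate 1) and Pou3f1 at -0.19 ± 0.058 (adjusted p = 0.0142, and 0.248 without STM2457 replicate 1 and 0.117 without STM2457 replicate 2). Fallers were 3 without DMSO replicate 2 and 0 with scaling to ribosomal protein genes. The 14 fibroblast markers summed to 54.5 to 56.5 CPM with DMSO and 60.9 to 66.0 CPM with STM2457, with Col3a1, Dcn and Lum at 0. Of the 8 tested 2 were called higher, Twist1 at 1.26 and 1.36 against 3.10 and 2.56 CPM (1.10 ± 0.29) and Pdgfrb at 12.4 and 13.1 against 17.2 and 16.1 CPM (0.39 ± 0.11). Neither was called on leaving out STM2457 replicate 1, with an adjusted p of 0.0615 for Twist1 and 0.124 for Pdgfrb. The part of such cells in the results below was not tested, and in bulk RNA fewer cells of a type and less RNA per cell cannot be told apart.

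Of the 55416 genes in the table, 14515 passed the filter on low counts and were tested with edgeR's quasi-likelihood test. Calls are two-sided, at a p under 0.05 after Benjamini-Hochberg adjustment. STM2457 raised 2367 genes (16.3% of those tested) and lowered 2011 (13.9%). These shares are the background for each count of list members in TSC below. The changes were mostly small: the median size of a called log2 fold change was 0.33, and 149 genes rose and 36 fell by at least 2-fold. In 4376 of the 4378 called genes the STM2457 libraries both lay on the same side of both DMSO libraries. With 2 libraries per arm a call from the same values nearly requires this, so it is no separate support. With a minimum of 1.5-fold built into the test, 59 genes rose and 2 fell, and 12 of these belong to the sterol lists described below. The count of calls differed between settings: DESeq2 called 2867 genes, leaving out STM2457 replicate 1 or replicate 2 left 2421 and 2268, and a fit that took the spread from all 14 libraries called 178, of which 177 were among the 4378. Scaling the libraries to the cytosolic ribosomal protein genes shifted the median of all genes by 0.10 on the log2 scale and moved the share of calls that were higher from 54.1% to 84.7%, and scaling to library totals moved it to 65.0%, so directions of small changes are relative to the other genes. Values of genes whose exons overlap another expressed gene are uncertain. Among the genes named here these are, with a neighbour on the opposite strand, Mettl3, Cyp51, Fdft1, Ggps1, Srebf1, Npc1, Ccna2, Cdc20, Mcm7, Rfc4, Mrpl43, Mrpl46, Phax, Thoc6, Srsf2, Ctnnb1, Ash1l, B3gnt8, Dgka and Snx5, and, with a neighbour on the same strand, Rbm15b, Tm7sf2 and Fgfr2. Values of Fdps are uncertain too, for the overlap given with its level below.

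**Figure D1:**
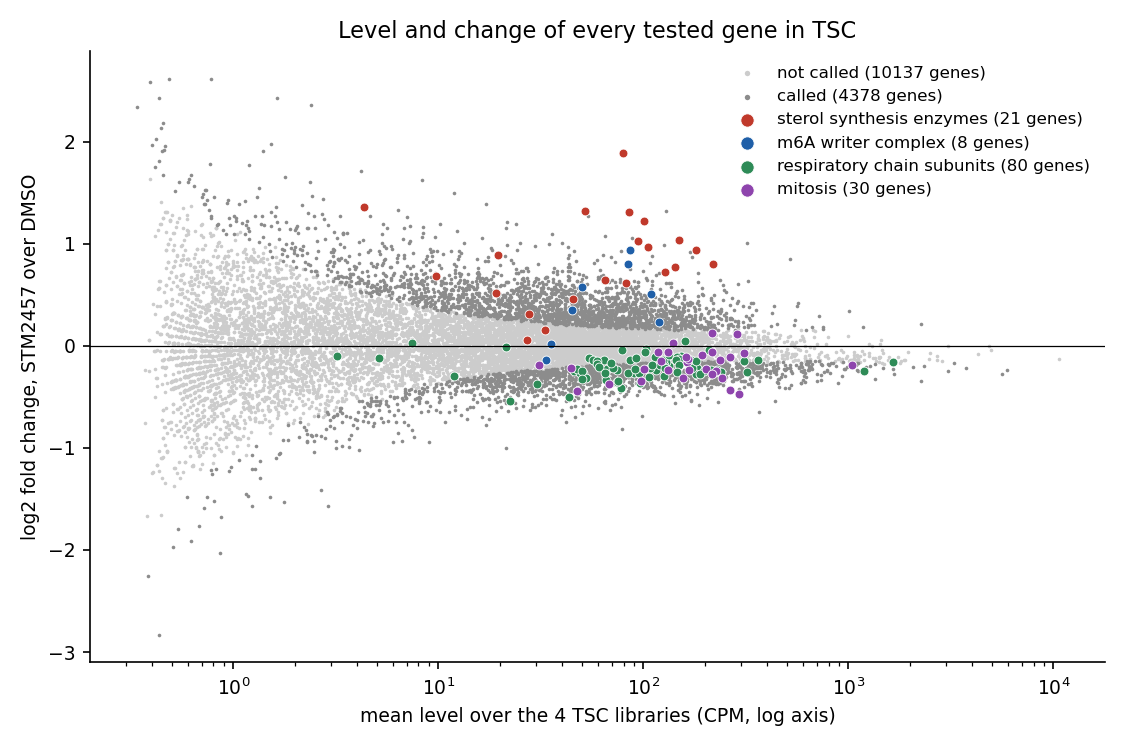
Log2 fold change of STM2457 over DMSO (vertical axis) against the mean level over the 4 TSC libraries in CPM (horizontal, log axis) for the 14515 tested genes, 1 point per gene. Sterol synthesis enzymes lie above 0, with Msmo1 at 1.89, and respiratory chain subunits and mitosis genes lie mostly just below it.

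The mRNAs of the m6A writer complex rose as a group around an enzyme whose own mRNA was not called. Mettl3 stood at 33.1 and 37.2 CPM with DMSO and 33.4 and 30.3 CPM with STM2457, a log2 fold change of -0.14 ± 0.088 (SE; adjusted p = 0.234), and the arms overlapped. STM2457 acts on the METTL3 protein, so this level is no check of the treatment labels. Mettl14, the partner that holds METTL3 on RNA, stood at 34.4 and 36.1 against 33.4 and 37.8 CPM (0.02 ± 0.084, adjusted p = 0.9). The other 6 of the 8 writer genes rose, and the median of all 8 was 0.43. Rbm15, an adaptor that recruits the complex to RNA and to Xist, stood at 61.8 and 55.6 CPM with DMSO and 111 and 115 CPM with STM2457, a log2 fold change of 0.94 ± 0.069 (adjusted p = 4.37e-09). Wtap, the scaffold subunit, stood at 60.5 and 62.9 against 108 and 106 CPM (0.80 ± 0.065, adjusted p = 2.45e-08). Virma, the large scaffold of the complex, stood at 92.0 and 88.1 against 132 and 124 CPM (0.51 ± 0.063, adjusted p = 5.79e-06). For these genes each STM2457 library lay above each DMSO library, which a call nearly requires. Rbm15b rose by 0.57 ± 0.072 and Cbll1 by 0.35 ± 0.075. Zc3h13 rose by 0.23 ± 0.062 (adjusted p = 0.00847), with an adjusted p of 0.181 without STM2457 replicate 1 and 0.0645 without STM2457 replicate 2. The fit over all 14 libraries called 4 of the 8 writer genes.

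Among 13 readers 4 rose and 1 fell, and 7 rose and 2 fell without DMSO replicate 1. The nuclear reader Ythdc1, which acts in splicing and export, stood at 115 and 119 CPM with DMSO and 226 and 217 CPM with STM2457, a log2 fold change of 0.92 ± 0.059 (adjusted p = 4.64e-10), so its level was 1.89-fold that of the DMSO arm. Ythdf2, the reader that recruits deadenylases, stood at 69.8 and 68.3 against 104 and 102 CPM (0.58 ± 0.065, adjusted p = 1.62e-06). Ythdf1 rose by 0.30 ± 0.057, and Ythdf3 by 0.28 ± 0.064 (adjusted p = 0.00247, and 0.166 without STM2457 replicate 2). Hnrnpc, a nuclear RNA-binding protein whose sites open when m6A changes RNA structure, stood lower, at 353 and 415 against 295 and 289 CPM (-0.39 ± 0.066, adjusted p = 0.000158). Neither of the 2 demethylases was called: Alkbh5 had 0.14 ± 0.060 (adjusted p = 0.0886) and Fto 0.11 ± 0.069 (adjusted p = 0.253).

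Cholesterol synthesis had the largest share of called members among the lists of at least 8 tested genes. The list holds 21 enzymes of the path from acetyl-CoA to cholesterol, counting Ggps1 on the branch to protein prenylation. Of the 21 enzymes 19 rose and 0 fell, with a median log2 fold change of 0.80, against 16.3% of all tested genes rising. Their summed level was 1142 and 1184 CPM in the DMSO libraries and 2185 and 2154 CPM in the STM2457 libraries. Cells control this pathway through SREBP2, a membrane-bound transcription factor that INSIG proteins hold in the endoplasmic reticulum while sterol is plentiful. SREBP proteins bind sterol regulatory elements together with NF-Y, which binds CCAAT boxes. Promoters of 3 enzymes that rose are shown because each holds the letters CCAAT on either strand, and 1 of them, that of Hmgcs1, also TCACNCCAC. Each is the 250 bases before the transcription start given by RefSeq (GRCm38.p6), 5′ to 3′ on the strand of the gene, with CCAAT, or ATTGG on the other strand, and the letters TCACNCCAC in capitals. Hmgcs1 lies on the plus strand at chr13:119690101-119690350, Nsdhl on the plus strand at chrX:72918271-72918520 and Cyp51 on the minus strand at chr5:4104698-4104947.
Hmgcs1: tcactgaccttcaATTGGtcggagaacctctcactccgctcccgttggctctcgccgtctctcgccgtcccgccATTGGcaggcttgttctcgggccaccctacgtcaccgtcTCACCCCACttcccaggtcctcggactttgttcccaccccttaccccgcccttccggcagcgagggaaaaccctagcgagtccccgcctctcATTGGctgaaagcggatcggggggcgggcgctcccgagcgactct
Nsdhl: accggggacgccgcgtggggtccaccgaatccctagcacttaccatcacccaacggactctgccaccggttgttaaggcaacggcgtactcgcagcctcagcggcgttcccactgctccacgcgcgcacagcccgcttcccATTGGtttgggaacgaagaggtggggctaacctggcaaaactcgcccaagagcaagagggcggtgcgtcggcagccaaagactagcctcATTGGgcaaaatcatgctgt
Cyp51: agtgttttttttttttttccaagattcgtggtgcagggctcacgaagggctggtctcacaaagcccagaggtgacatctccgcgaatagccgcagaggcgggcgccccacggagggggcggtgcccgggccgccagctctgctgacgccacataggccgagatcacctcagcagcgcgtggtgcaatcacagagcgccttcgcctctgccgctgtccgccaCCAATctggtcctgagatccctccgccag
CCAAT occurred on either strand in 15 of the 16 enzyme genes with an entry in the RefSeq table (93.8%), within windows of 300 bases that end 50 bases after a start. It occurred in 41.1% of all 27025 genes of the table and in 43.4% of the 10049 tested protein-coding genes it holds. The letters TCACNCCAC occurred in 1 of the 16, Hmgcs1, against 1.44% of all genes. In the list of sterol uptake and its control CCAAT occurred in 7 of 13 genes (53.8%) and TCACNCCAC in 0. The Hmgcs1 promoter above holds 3 CCAAT matches beside it, the Nsdhl promoter 2 and the Cyp51 promoter 1. A match is a description of letters and not a site of binding.

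The early enzymes of the pathway rose by different amounts. Hmgcs1, which makes HMG-CoA, stood at 119 and 128 CPM with DMSO and 238 and 235 CPM with STM2457, a log2 fold change of 0.94 ± 0.060 (adjusted p = 4.33e-10). Of the mevalonate steps that follow, Pmvk rose by 0.45 ± 0.076, Mvd by 0.73 ± 0.061 and Idi1 by 0.89 ± 0.10. Mvk stood at 24.4 and 24.8 against 30.5 and 30.4 CPM and rose by 0.31 ± 0.087 (adjusted p = 0.0105, and 0.0836 without STM2457 replicate 1 and 0.069 without STM2457 replicate 2). Fdft1, which commits the pathway to squalene, stood at 73.7 and 69.2 against 141 and 139 CPM (0.97 ± 0.064, adjusted p = 7.55e-10). Sqle, the squalene epoxidase, stood at 99.99 and 111 against 182 and 178 CPM (0.77 ± 0.064, adjusted p = 2.53e-08), and Lss, which closes the sterol rings, at 63.2 and 60.2 against 125 and 126 CPM (1.03 ± 0.065, adjusted p = 3.97e-10).

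The enzymes that turn lanosterol into cholesterol included the largest change of the list. Msmo1, which oxidises the methyl groups on the sterol ring, stood at 32.7 and 34.8 CPM with DMSO and 125 and 125 CPM with STM2457, a log2 fold change of 1.89 ± 0.070 (adjusted p = 8.56e-14). This 3.71-fold rise had the smallest p of all 14515 genes. Nsdhl, which acts on the products of Msmo1 and is X-linked, stood at 29.2 and 30.0 against 73.1 and 75.0 CPM (1.32 ± 0.074, adjusted p = 9.55e-11). Cyp51, the lanosterol demethylase, stood at 56.8 and 63.7 against 144 and 136 CPM (1.22 ± 0.069, adjusted p = 1.04e-10). Dhcr7, a reductase late in the pathway, stood at 49.0 and 48.6 against 121 and 120.4 CPM (1.31 ± 0.066, adjusted p = 1.59e-11). Replicates of each arm lay close together in these 4, and the arms did not overlap, as a call nearly requires. Tm7sf2, Hsd17b7 and Sc5d rose by 0.52 ± 0.10, 0.68 ± 0.14 and 0.64 ± 0.070, and Acat2 at the start of the pathway by 0.61 ± 0.073. Fdps stood at 2.62 and 2.23 against 6.14 and 6.28 CPM (1.35 ± 0.20, adjusted p = 4.13e-05), and its locus overlaps another in the annotation, so this value is uncertain. Ebp, with 0.16 ± 0.087 (adjusted p = 0.187), and Ggps1, on the branch to protein prenylation, with 0.06 ± 0.090 (adjusted p = 0.662), were not called.

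On leaving out 1 library 18 to 20 of the 21 enzymes were called, and DESeq2 called 18. The fit over all 14 libraries called 0 of the 21 with edgeR and gave 9 an unadjusted p under 0.05, at a median log2 fold change of 0.79. XEN libraries of an arm, which enter that fit, differed more from each other, with a chi-square per degree of freedom of 10.3 to 26.8.

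**Figure D2:**
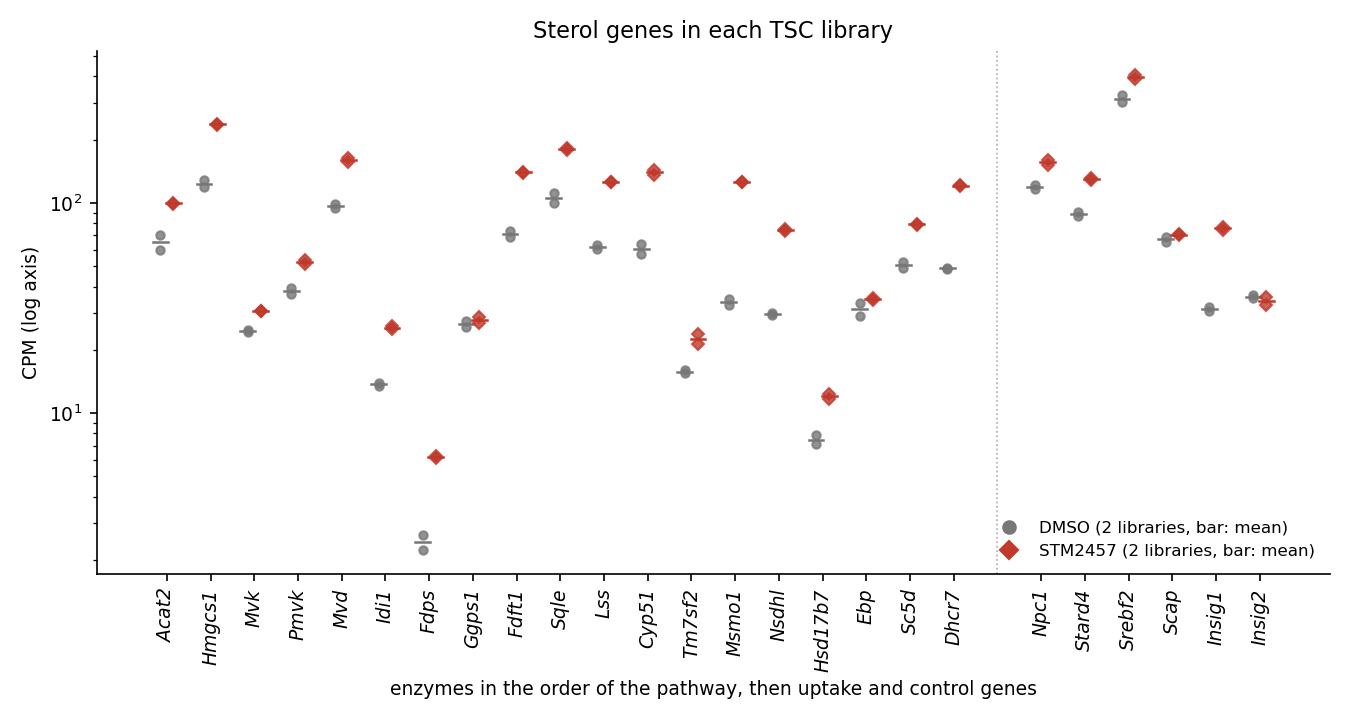
CPM (log axis) of 19 of the enzymes in pathway order and of 6 uptake and control genes, with 1 point per TSC library and a bar at the mean of each arm. The STM2457 points lie above the DMSO points in 18 of these 19 enzymes, and Insig1 rose while Insig2 and Scap were not called.

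Genes for sterol uptake and its control changed selectively. Of 16 tested, 6 rose and 1 fell. Insig1, itself a target of SREBP, stood at 30.6 and 32.0 CPM with DMSO and 76.7 and 74.4 CPM with STM2457, a log2 fold change of 1.27 ± 0.074 (adjusted p = 1.14e-10), while Insig2 had -0.07 ± 0.082 (adjusted p = 0.558). Srebf2, the gene of SREBP2, stood at 324 and 303 against 389 and 408 CPM and rose by 0.35 ± 0.059 (adjusted p = 0.000165), and Srebf1 had -0.04 ± 0.059 (adjusted p = 0.657). Stard4, a sterol carrier, rose by 0.55 ± 0.062, and Npc1, which moves cholesterol out of lysosomes, by 0.39 ± 0.061. Mbtps1, a protease that activates SREBP, rose by 0.19 ± 0.057 (adjusted p = 0.0137, and 0.307 without STM2457 replicate 1 and 0.103 without STM2457 replicate 2). Mylip, a ubiquitin ligase, was the gene that fell, with -0.38 ± 0.13 (adjusted p = 0.0351, and 0.308 without STM2457 replicate 1).

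Fatty acid synthesis, which SREBP proteins also drive, rose in 11 of 17 genes and fell in 1, with a median log2 fold change of 0.26. Leaving out STM2457 replicate 1 or replicate 2 left 8 risers. Fasn, the fatty acid synthase, stood at 221 and 205 CPM with DMSO and 437 and 418 CPM with STM2457, a log2 fold change of 1.00 ± 0.060 (adjusted p = 1.66e-10). The desaturases Scd2, at 393 and 345 against 662 and 670.4 CPM (0.85 ± 0.063), Scd1 (0.64 ± 0.057) and Fads2 (0.87 ± 0.073) and the elongase Elovl6 (0.69 ± 0.061) rose. The gene that fell, Slc33a1, carries acetyl-CoA into the endoplasmic reticulum. It stood at 28.4 and 28.7 CPM with DMSO and 14.1 and 14.4 CPM with STM2457, a log2 fold change of -1.01 ± 0.097 (adjusted p = 2.45e-07).

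**Figure D3:**
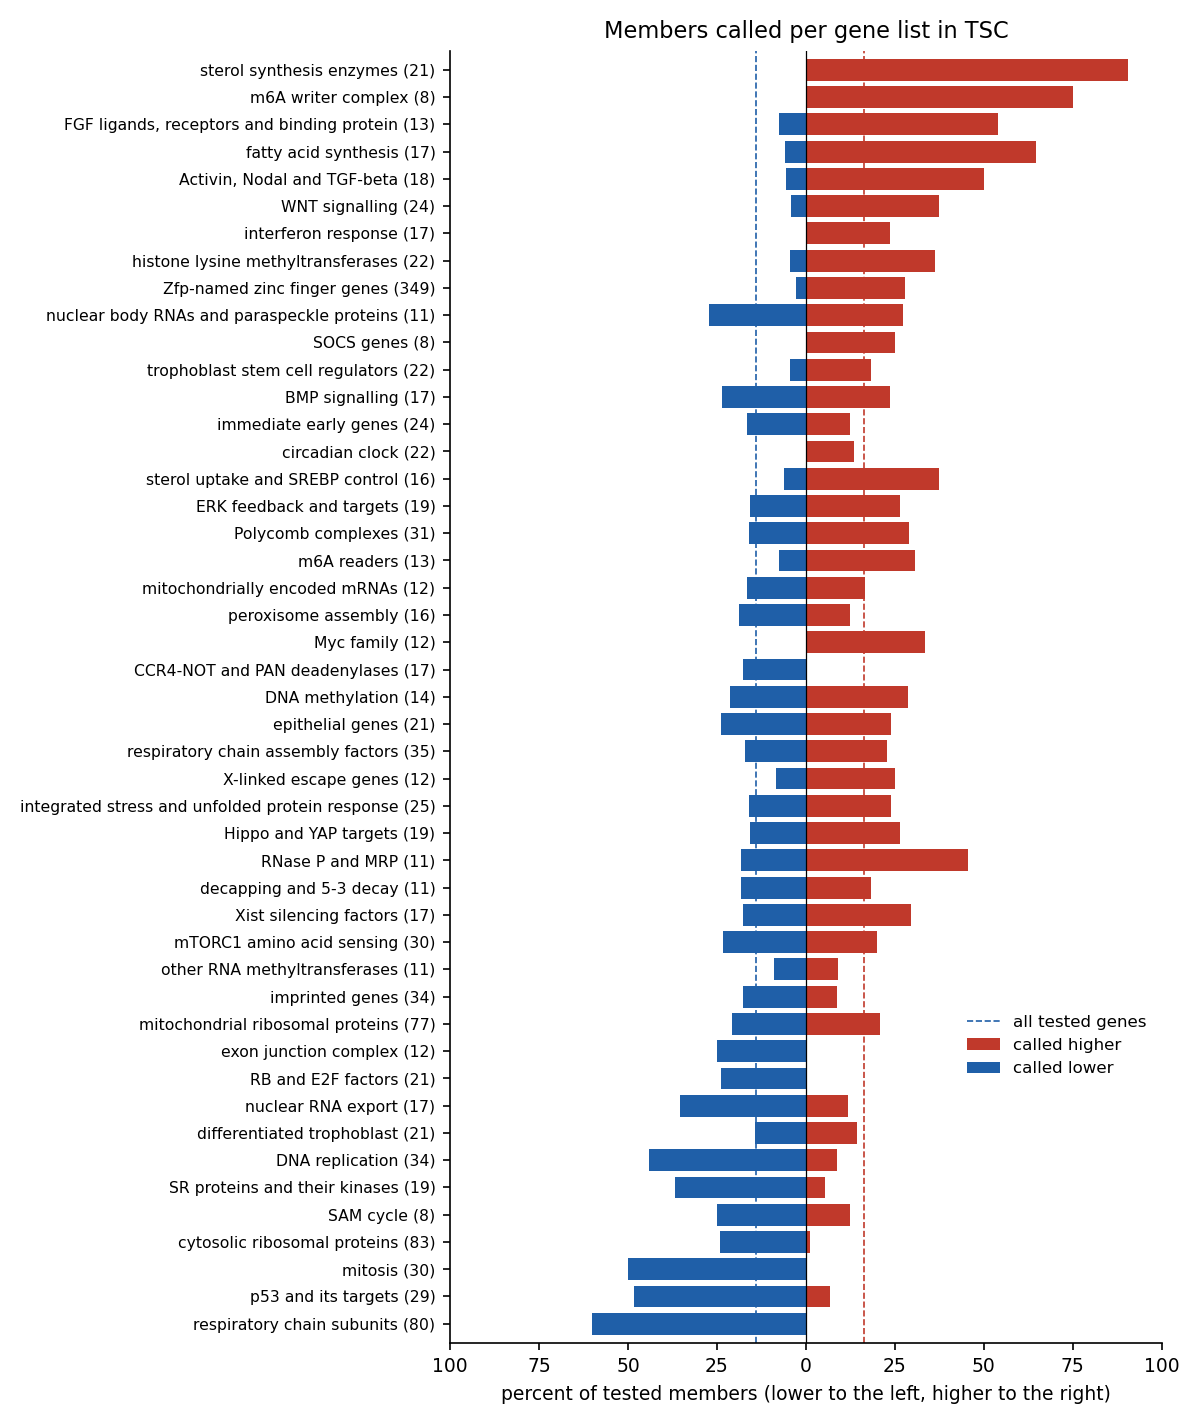
Percent of the tested members of each gene list (rows, number of members in brackets) called higher (right) or lower (left) with STM2457, in order of the list's median log2 fold change. Dashed lines mark the shares of all tested genes, 16.3% higher and 13.9% lower: 19 of 21 sterol enzymes rose and 48 of 80 respiratory chain subunits fell.

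Genes of the p53 response were lower with STM2457. p53 halts the cell cycle or starts apoptosis after damage, partly through the cyclin-dependent kinase inhibitor p21, which Cdkn1a encodes. Of 29 tested genes 14 fell and 2 rose, with a median of -0.22 (-0.12 when scaled to ribosomal protein genes), against 13.9% of all genes falling. Cdkn1a stood at 104 and 96.7 CPM with DMSO and 55.7 and 58.0 CPM with STM2457, a log2 fold change of -0.82 ± 0.068 (adjusted p = 2.87e-08), the smallest p of any gene that fell. Ccng1, a p53-induced cyclin, stood at 491 and 545 against 367 and 346 CPM (-0.54 ± 0.062, adjusted p = 2.24e-06). Bbc3, which encodes the cell-death protein PUMA, stood at 52.8 and 56.0 against 38.2 and 37.4 CPM (-0.53 ± 0.075, adjusted p = 2.69e-05), Plk2 fell by 0.60 ± 0.086, and Apaf1, the core of the apoptosome, fell by 0.39 ± 0.062. The arms were apart in all 5, which a call with 2 libraries per arm nearly requires. Trp53, the gene of p53, picked after its value was seen, stood at 154 and 147 against 115 and 116 CPM (-0.38 ± 0.060, adjusted p = 7.5e-05). The risers, picked in the same way, were Sesn1 at 0.62 ± 0.11 and Tigar at 0.37 ± 0.080, which encode regulators of metabolism. The fallers numbered 9 without STM2457 replicate 1.

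Cell cycle lists held more fallers than risers, except for replication, RB and E2F genes when scaled to ribosomal protein genes. Of 30 mitosis genes 15 fell and 0 rose (median -0.18). Ccna2, the cyclin of S phase and mitotic entry, stood at 338 and 341 CPM with DMSO and 252 and 239 CPM with STM2457, a log2 fold change of -0.47 ± 0.057 (adjusted p = 4.65e-06). Cdc20, which switches on the ligase that starts anaphase, stood at 298 and 308 against 226 and 222 CPM (-0.43 ± 0.057, adjusted p = 1e-05), and Ccnb1 at 259.6 and 275 against 212 and 217 CPM (-0.32 ± 0.058, adjusted p = 0.000298). Of 34 replication genes 15 fell and 3 rose (median -0.12): Pcna, the sliding clamp, stood lower, at 211 and 217 against 159 and 170.0 CPM (-0.38 ± 0.059), Mcm7 of the replicative helicase had -0.34 ± 0.057, Rfc4 had -0.46 ± 0.070 and Pold1 had -0.32 ± 0.062. Among 21 RB and E2F genes 5 fell and 0 rose (median -0.08, but 0.01 once scaled to ribosomal protein genes), with Cdkn1c, another cyclin-dependent kinase inhibitor, at -0.37 ± 0.071. Leaving out STM2457 replicate 1 or replicate 2 left 9 and 8 mitosis genes lower, 9 and 8 replication genes, with 0 of that list higher in either case, and 3 and 2 RB and E2F genes. Scaled to ribosomal protein genes, 7 mitosis genes fell and 2 rose, 4 replication genes fell and 4 rose, and 1 RB and E2F gene fell and 1 rose.

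Nuclear genes for subunits of the respiratory chain fell broadly and by small amounts. Of 80 tested 48 fell and 0 rose, with a median of -0.22. Ndufa5, a subunit of complex I, stood at 25.5 and 27.7 CPM with DMSO and 17.9 and 18.7 CPM with STM2457, a log2 fold change of -0.54 ± 0.096 (adjusted p = 0.000272). Cox6b2, of cytochrome oxidase, stood at 49.5 and 52.2 against 34.5 and 37.0 CPM (-0.51 ± 0.077), Ndufa8 at 83.4 and 94.5 against 68.3 and 65.8 CPM (-0.41 ± 0.071) and Sdhb, of succinate dehydrogenase, at 82.3 and 85.3 against 65.5 and 65.5 CPM (-0.35 ± 0.066). The 2 arms were apart in each, which is no separate support for a call. The 48 became 27 and 11 without STM2457 replicate 1 or replicate 2, and 9 with scaling to ribosomal protein genes. Of 35 factors that assemble the chain 8 rose and 6 fell, beside a background of 16.3% and 13.9%, and 5 rose and 9 fell without DMSO replicate 1, 5 and 1 without STM2457 replicate 1 and 5 and 2 without replicate 2. Ndufaf1 at 0.63 ± 0.077 and Ndufaf4 at 0.71 ± 0.096 were higher, and Lyrm7 at -0.52 ± 0.11 was lower. Of the 12 mRNAs encoded in mitochondria 2 rose and 2 fell, near the background of 16.3% and 13.9%. Among them mt-Cytb had 0.34 ± 0.061 and mt-Co1 had -0.28 ± 0.065 (adjusted p = 0.00275). The value of mt-Co1 was -0.32 without STM2457 replicate 1 and -0.24 without STM2457 replicate 2. Leaving out either STM2457 library left 1 riser and 0 fallers, and 4 rose without DMSO replicate 1.

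Of 83 cytosolic ribosomal protein genes 20 fell and 1 rose (median -0.14), and the riser, Rpl10l, picked after its value was seen, is a low-count copy of a ribosomal gene (0.367 and 0.435 against 1.05 and 1.06 CPM; adjusted p = 0.0277, and 0.131 without DMSO replicate 1 and 0.0768 without DMSO replicate 2 and 0.134 without STM2457 replicate 1 and 0.178 without STM2457 replicate 2). Rps27l fell by 0.29 ± 0.060. Of the 83, 67 fell without DMSO replicate 1, and 2 and 1 without STM2457 replicate 1 and replicate 2. Of 77 mitochondrial ribosomal protein genes 16 rose and 16 fell, and 22 rose and 4 fell with scaling to the cytosolic ones. Mrpl46 stood at 33.2 and 34.7 CPM with DMSO and 61.7 and 58.9 CPM with STM2457, a log2 fold change of 0.83 ± 0.075 (adjusted p = 9.13e-08). Mrps2 stood at 90.5 and 90.1 against 149 and 147 CPM (0.71 ± 0.061), Mrpl43 at 53.6 and 51.4 against 91.5 and 94.1 CPM (0.82 ± 0.068) and Mrpl16 at 47.7 and 52.4 against 78.6 and 76.0 CPM (0.63 ± 0.072). The counts were 10 and 11 without STM2457 replicate 1, without replicate 2 they were 12 and 6, and without DMSO replicate 1 they were 14 and 26.

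In RNA processing, protein subunits of RNase P and RNase MRP, which trim transfer RNA and ribosomal RNA precursors, went both ways. Rpp25 stood at 9.90 and 9.08 CPM with DMSO and 24.8 and 24.8 CPM with STM2457, a log2 fold change of 1.38 ± 0.11 (adjusted p = 1.34e-08). Pop7, which pairs with it, stood at 11.5 and 14.4 against 30.8 and 29.3 CPM (1.21 ± 0.11, adjusted p = 6.87e-08). Rpp25l and Rpp38 rose by 0.60 ± 0.092 and 0.56 ± 0.093, and Rpp30 fell by 0.52 ± 0.081. Of the 11 subunits 5 rose and 2 fell, and 1 fell on leaving out either STM2457 library or DMSO replicate 2. In nuclear export Nxt1, the partner of the main mRNA export receptor, stood at 51.5 and 55.4 CPM with DMSO and 104 and 100.5 CPM with STM2457 (0.93 ± 0.068, adjusted p = 4.22e-09), and Thoc6 of the TREX complex fell by 0.58 ± 0.083. Of 17 export genes 2 rose and 6 fell. Phax, the adaptor that exports small nuclear RNA precursors, was among the rises with the smallest p, at 82.3 and 86.8 against 171 and 165 CPM (0.99 ± 0.062, adjusted p = 3.62e-10). Of 19 splicing factor genes of the SR family and their kinases 7 fell and 1 rose, with Srsf2 at -0.41 ± 0.059 and the kinase Srpk1 at 0.31 ± 0.061. Fallers were 3 export and 3 SR genes without STM2457 replicate 1, and 3 and 2 without replicate 2. Of 11 nuclear body RNAs and paraspeckle proteins 3 rose and 3 fell, and 5 rose without DMSO replicate 1 and 2 fell without STM2457 replicate 2. Coil, of Cajal bodies, and Son, of nuclear speckles, rose by 0.39 ± 0.074 and 0.32 ± 0.056. The nuclear noncoding RNA Neat1, which builds paraspeckles, stood at 194 and 179 CPM with DMSO and 129 and 138 CPM with STM2457 (-0.48 ± 0.062, adjusted p = 8.88e-06), and the paraspeckle protein gene Tardbp fell by 0.36 ± 0.058.

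Of 22 regulators that define TSC, 4 rose and 1 fell after 12 h, beside a background of 16.3% and 13.9%. Cdx2, with the values above, rose by 0.37 ± 0.066 (adjusted p = 0.000268). Sall4 stood at 118 and 113 against 163 and 153 CPM (0.45 ± 0.061, adjusted p = 1.69e-05). Eomes had 0.14 ± 0.058 (adjusted p = 0.0691) and Elf5 -0.10 ± 0.059 (adjusted p = 0.218). Esrrb rose by 0.15 ± 0.056 (adjusted p = 0.0486, and 0.426 without STM2457 replicate 1 and 0.303 without STM2457 replicate 2), and Tfap2c fell by 0.22 ± 0.059 (adjusted p = 0.0081, and 0.161 without STM2457 replicate 1 and 0.099 without STM2457 replicate 2). Without DMSO replicate 1, 10 of the 22 rose. Of 21 tested genes of differentiated trophoblast, out of 34 listed, 3 rose and 3 fell, and 7 fell without DMSO replicate 2, 1 without STM2457 replicate 1 and 1 without replicate 2, where 1 rose. Cited2 stood at 48.3 and 44.9 against 66.3 and 64.8 CPM (0.49 ± 0.072), and the imprinted Peg10, needed for placental development, stood lower, at 250.2 and 250.4 against 204 and 187 CPM (-0.36 ± 0.060). Of 21 epithelial genes 5 rose and 5 fell, with 1 and 3 without STM2457 replicate 1 and 1 and 2 without replicate 2. Cldn3, of tight junctions, rose by 0.36 ± 0.059, and the keratin genes Krt19 and Krt7 fell. Krt19 stood at 269.7 and 277 CPM with DMSO and 184 and 189 CPM with STM2457 (-0.55 ± 0.057, adjusted p = 6.41e-07) and Krt7 at 54.4 and 57.9 against 39.2 and 39.4 CPM (-0.51 ± 0.074).

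FGF signalling keeps TSC dividing. Of 13 tested genes for its ligands, receptors, a binding protein and adaptors 7 rose and 1, the adaptor gene Grb2, fell. Among all tested genes 16.3% rose and 13.9% fell. DESeq2 called 5 of the 13 higher and 1 lower. The fit over all 14 libraries and the fold minimum of 1.5 each called 1 higher and 0 lower. Fgfbp1, a secreted protein that releases FGF from the matrix, stood at 6.13 and 6.36 CPM with DMSO and 18.9 and 16.5 CPM with STM2457, a 2.83-fold rise with an SE of 0.13 on the log2 scale (adjusted p = 5.68e-08). Fgfrl1, a receptor without a kinase, stood at 9.38 and 8.86 against 13.5 and 16.3 CPM (0.71 ± 0.13). Fgfr1 rose by 0.34 ± 0.075, and Fgfr2, the receptor for Fgf4 in these cells, had 0.11 ± 0.060 (adjusted p = 0.19). The adaptor genes Frs2 and Sos1 rose by 0.31 ± 0.067 and 0.36 ± 0.066, and Grb2 fell by 0.23 ± 0.062 (adjusted p = 0.00856, and 0.244 without STM2457 replicate 1). Of 19 ERK feedback genes 5 rose and 3 fell. The feedback inhibitors Spry4, at 104 and 95.5 against 136 and 139 CPM (0.46 ± 0.063), Dusp6 (0.31 ± 0.075), Il17rd (0.35 ± 0.067) and Errfi1 (0.45 ± 0.060) rose, while Spry2 fell by 0.26 ± 0.075 (adjusted p = 0.0112, and 0.0572 without STM2457 replicate 1 and 0.123 without STM2457 replicate 2). None of the 19 fell without STM2457 replicate 1, without replicate 2, 1 fell, and without DMSO replicate 1, 8 rose.

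The Activin and WNT lists held more risers than fallers. Among all tested genes 16.3% rose and 13.9% fell, and the immediate early genes below stayed near those shares. Of 18 Activin, Nodal and TGF-beta genes 9 rose and 1 fell (median 0.24), among them the SMAD corepressors Ski at 89.6 and 84.4 against 112 and 118 CPM (0.41 ± 0.064) and Skil (0.38 ± 0.059). Leaving out either STM2457 library left 5 risers. Of 24 WNT genes 9 rose and 1 fell (median 0.20). Axin1, a scaffold of the complex that destroys beta-catenin, stood at 108 and 105 against 149 and 149 CPM (0.48 ± 0.060), and Znrf3, which removes WNT receptors, at 28.1 and 25.7 against 36.1 and 40.6 CPM (0.51 ± 0.088). Lgr4, an R-spondin receptor, rose by 0.54 ± 0.091, and Ctnnb1, the gene of beta-catenin, stood lower, at 808 and 825 against 647 and 648 CPM (-0.33 ± 0.057). Without STM2457 replicate 2, 6 WNT genes rose. Of 24 immediate early genes 3 rose and 4 fell, and 6 rose without DMSO replicate 1 and 2 fell without STM2457 replicate 2, with Egr1 at 86.6 and 72.0 against 123 and 128 CPM (0.66 ± 0.074) and Ier2 at -0.39 ± 0.075. Socs6, an inhibitor of cytokine signalling, rose by 0.63 ± 0.066.

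Chromatin genes held more risers than fallers, with exceptions. Of 22 histone lysine methyltransferase genes 8 rose and 1 fell (median 0.16). Setd2, which methylates histone H3 along transcribed genes, stood at 213 and 200.4 CPM with DMSO and 301 and 293 CPM with STM2457 (0.52 ± 0.058, adjusted p = 1.46e-06), and Ash1l at 51.9 and 42.9 against 76.5 and 76.1 CPM (0.69 ± 0.080). Without STM2457 replicate 1 or replicate 2, 4 and 5 rose, and 15 did without DMSO replicate 1. Of 31 Polycomb genes 9 rose and 5 fell: Ring1 and Cbx8 rose by 0.65 ± 0.11 and 0.63 ± 0.099, and Ezh2, the H3K27 methyltransferase, stood lower, at 248 and 250.2 against 196 and 189.8 CPM (-0.37 ± 0.057). Without STM2457 replicate 2, 3 rose and 4 fell. Of 14 DNA methylation genes 4 rose and 3 fell (median 0.02), beside 16.3% and 13.9% of all tested genes. With scaling to ribosomal protein genes 4 rose and 0 fell. The largest rise of that list was that of Tet3, a methylcytosine dioxygenase, at 34.4 and 31.9 against 57.1 and 52.8 CPM (0.73 ± 0.079, adjusted p = 1.18e-06). Genes named Zfp, mostly KRAB zinc finger repressors of which many have their fingers in a single long exon, rose in 97 of 349 cases and fell in 10 (median 0.15). Zfp229 stood at 27.7 and 25.6 CPM with DMSO and 52.0 and 55.1 CPM with STM2457 (1.01 ± 0.081, adjusted p = 1.68e-08), Zfp773 at 8.54 and 9.24 against 18.2 and 17.6 CPM (1.01 ± 0.12) and Zfp62 at 31.1 and 33.5 against 53.5 and 56.6 CPM (0.77 ± 0.078). Without STM2457 replicate 1 or replicate 2, 57 and 60 rose, and 55 did with DESeq2.

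The direction of change was graded by transcript structure. The tested protein-coding genes, of which 18.2% rose and 15% fell, were set in 4 equal classes by the number of exon junctions per kb in the longest transcript. In the class with the fewest junctions, up to 1.43 per kb, 30.3% rose and 7.04% fell, with a median of 0.16. The next classes had 20.8% and 12.2%, then 14.9% and 15.3%. In the class with the most junctions, from 4.49 per kb, 6.57% rose and 25.5% fell, with a median of -0.11. The same order held in genes below and above the median level taken apart: 26.5% down to 6.54% rose in the lower and 34.9% down to 6.66% in the higher group. It held without the Zfp genes, with 30.2% down to 6.53%. Genes with a longest exon of at least 2696 bases rose in 26.0% of cases and fell in 8.43%, and genes whose longest exon had at most 773 bases rose in 6.82% and fell in 25.8%. Transcript length was graded in the same way. Of 350 single-exon protein-coding genes 88 rose (25.1%) and 21 fell (6%), with a median of 0.20. These classes overlap with each other and with the lists above, and the part of each property was not tested.

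**Figure D4:**
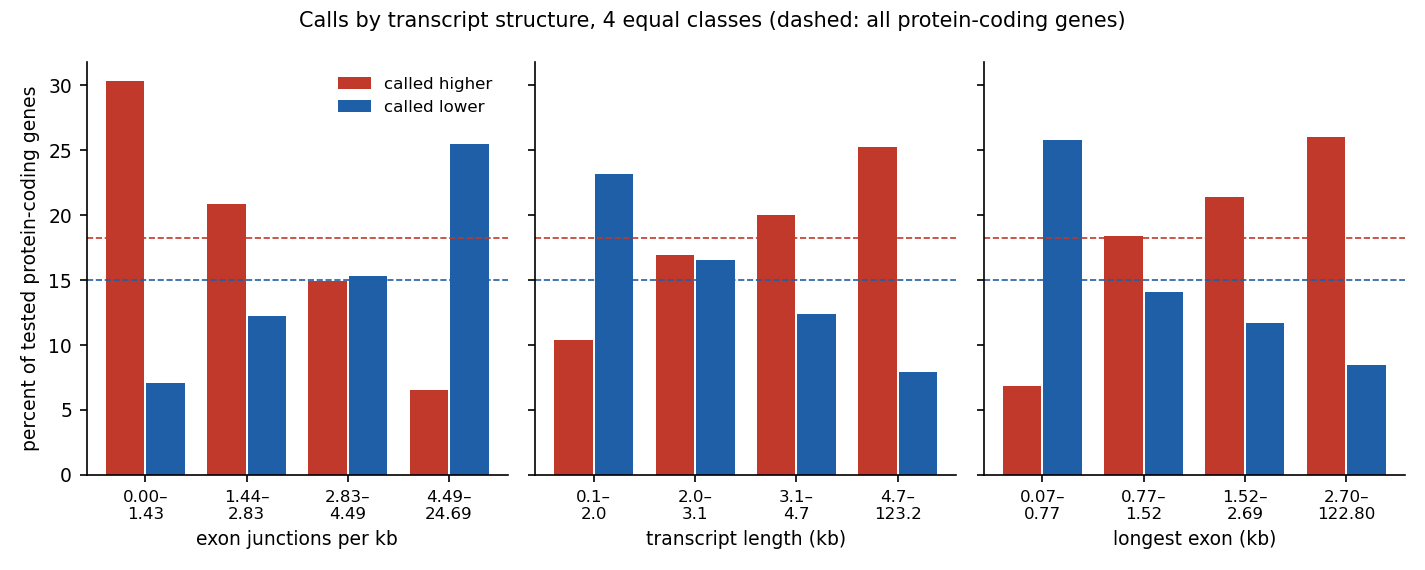
Percent of tested protein-coding genes called higher or lower with STM2457 in 4 equal classes of exon junctions per kb, of transcript length and of the longest exon in kb, with the range of each class under its bars. Dashed lines mark all protein-coding genes, 18.2% higher and 15% lower: the share of risers falls from 30.3% to 6.57% as junctions become denser.

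X-linked genes stood slightly lower relative to autosomes with the inhibitor, a measure that the title of the series makes of interest. Of 405 tested X-linked protein-coding genes 10.1% rose and 16.5% fell (median -0.05), against 18.4% and 14.9% of 12303 autosomal genes (median 0.02). The mean log2 CPM of X-linked genes minus that of autosomal genes, with Xist and Tsix left out, was -0.32 and -0.28 in the DMSO libraries and -0.38 and -0.36 in the STM2457 libraries. The difference of the arms was -0.07, and its exact two-sided permutation p was 0.333, the smallest that 6 assignments of 4 libraries allow. X-linked genes took 3.30% and 3.39% of counts with DMSO and 3.25% and 3.22% with STM2457. Xist, the RNA that coats and silences the inactive X chromosome and is itself m6A-modified, stood at 910.1 and 782 CPM with DMSO and 732 and 765 CPM with STM2457, a log2 fold change of -0.18 ± 0.066 (adjusted p = 0.0484). This call was lost in several settings, and its size changed. The log2 fold change was -0.06 without DMSO replicate 1, -0.15 without STM2457 replicate 1 and -0.21 without STM2457 replicate 2. It was -0.08 with scaling to ribosomal protein genes and -0.14 with library totals. DESeq2, the replicate block and these 2 scalings did not call Xist. Tsix, the antisense partner, had 8 and 10 counts with DMSO and 18 and 11 with STM2457 (adjusted p = 0.369), and since whether counting used strand is not stated in the sources used here, its reads and those of Xist cannot be told apart. Of 17 factors of Xist silencing 5 rose, with Rbm15, Rbm15b, Wtap and Ythdc1 among them, and 3 fell. Leaving out either STM2457 library left 1 faller, and leaving out either DMSO library gave 5. Other X-linked rises were Rab9 at 0.70 ± 0.076, Shroom2 at 0.63 ± 0.083 and Utp14a at 0.62 ± 0.060, the last on the list of genes that escape X inactivation. X-linked falls included Apoo, a mitochondrial cristae protein, at -0.65 ± 0.14, and the actin-binding Tmsb4x, at 160.1 and 179.6 against 111 and 119.5 CPM (-0.56 ± 0.066, adjusted p = 3.2e-06).

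Several of the other large changes belonged to no list. Among the rises BC030499 stood at 3.72 and 4.46 CPM with DMSO and 11.8 and 13.3 CPM with STM2457 (1.63 ± 0.16, adjusted p = 2.06e-07), B3gnt8, a glycosyltransferase, at 2.10 and 1.85 against 6.09 and 6.81 CPM (1.71 ± 0.21) and Plcl2, an inactive phospholipase C homologue, at 3.09 and 4.19 against 8.80 and 9.42 CPM (1.33 ± 0.17). Rdh11, a retinol dehydrogenase, stood at 40.3 and 43.1 against 91.3 and 84.7 CPM (1.08 ± 0.073), and Ap5b1, of an endosomal adaptor complex, at 4.40 and 3.86 against 10.5 and 9.47 CPM (1.27 ± 0.16). Among the falls Loxl2, a lysyl oxidase of the matrix, stood at 10.4 and 9.41 CPM with DMSO and 5.20 and 5.46 CPM with STM2457 (-0.89 ± 0.15, adjusted p = 0.00015), Cdnf, a secreted neurotrophic factor, at 7.23 and 8.59 against 3.99 and 4.20 CPM (-0.95 ± 0.17) and Rgcc, a cell cycle regulator, at 19.4 and 23.7 against 12.3 and 12.8 CPM (-0.77 ± 0.12). At higher counts Fam162a stood at 120.2 and 122 against 75.7 and 74.7 CPM (-0.69 ± 0.063, adjusted p = 9.64e-08), the sorting nexin Snx5 at 421 and 473 against 294 and 277 CPM (-0.65 ± 0.063), the splicing factor Prpf19 at 223 and 223 against 151 and 148 CPM (-0.58 ± 0.057) and the diacylglycerol kinase Dgka at 51.2 and 54.3 against 30.3 and 32.6 CPM (-0.74 ± 0.079). Arms were apart in each of these genes because the rule that picked them required it, so this is no support for the changes.

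The response of TSC was set against that of EpiSC by a test of the difference between the lines' effects, fitted on the 8 libraries. Of 16140 genes 683 (4.23%) differed, 347 with the higher effect in TSC and 336 with the lower. In EpiSC alone 4321 of 14800 genes were called, 2248 higher and 2073 lower, which is the background for EpiSC list counts below. Of the TSC calls 4232 were tested there and 2133 called (50.4%), 2061 of them in the same direction. Lines and media differ together, and the EpiSC carry the ΔTsix genotype, so line, medium and genotype cannot be told apart.

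Sterol synthesis was, of the lists examined, the one in which TSC and EpiSC differed most often: 15 of the 21 enzymes responded more in TSC and 0 less. In EpiSC 10 of the 21 rose and 1 fell, at a median of 0.26 against 0.80 in TSC. Msmo1 had 0.57 ± 0.069 in EpiSC, a difference of 1.32 ± 0.099 (adjusted p = 1.59e-09). Insig1 had 0.11 ± 0.061 in EpiSC (difference 1.16 ± 0.094, adjusted p = 4.24e-09). Of the 17 fatty acid genes 7 had the higher effect in TSC, with Fasn at 0.20 ± 0.068 in EpiSC (difference 0.81 ± 0.091). The lower effect was found for 1, Slc33a1, whose fall was larger in TSC (difference -0.55 ± 0.14, adjusted p = 0.0175). Slc27a2, a fatty acid transport protein at 2.99 and 2.45 against 6.86 and 6.28 CPM in TSC, also differed, with 1.27 ± 0.20 in TSC and -0.27 ± 0.12 in EpiSC (difference 1.54 ± 0.22, adjusted p = 6.32e-05).

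In other lists members differed in either direction. Rbm15 rose more in TSC (difference 0.72 ± 0.11, adjusted p = 0.000205), while Wtap rose by 0.77 ± 0.068 in EpiSC and the difference was 0.03 ± 0.095 (adjusted p = 0.946). Immediate early genes were called higher in 15 of 23 cases in EpiSC, beside 2248 of all 14800 genes tested there. The lower effect in TSC was found for 8 of 25, Ier2 among them (difference -0.56 ± 0.098, adjusted p = 0.000729). Krt19 fell in TSC and had 0.34 ± 0.072 in EpiSC (difference -0.89 ± 0.095, adjusted p = 6.99e-07), and Peg10 behaved likewise, with 0.45 ± 0.072 in EpiSC (difference -0.81 ± 0.098, adjusted p = 4.62e-06). The falls of Cdkn1a, with -0.57 ± 0.061 in EpiSC (difference -0.25 ± 0.088, adjusted p = 0.111), and of Ezh2, with -0.39 ± 0.063 (difference 0.02 ± 0.085, adjusted p = 0.966), were not found to differ. Without STM2457 replicate 1 or replicate 2 of TSC the count of 683 was 289 and 299, without STM2457 replicate 1 of EpiSC 349, and in the fit of all 14 libraries 1. Against XEN, edgeR called 0 of 15589 genes and DESeq2 0, with 563 at an unadjusted p under 0.05. The 21 sterol enzymes had a median of 1.21 in XEN with 0 called there by edgeR.

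**Figure D5:**
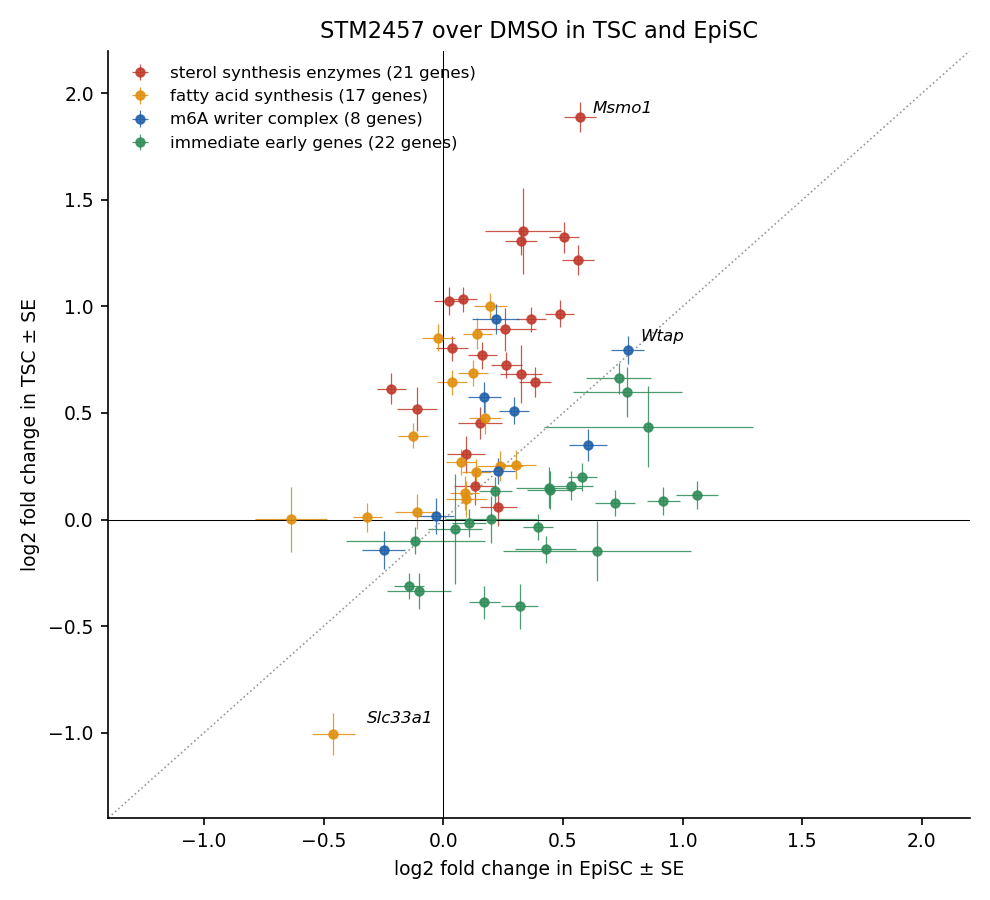
Log2 fold change of STM2457 over DMSO in TSC (vertical) against that in EpiSC (horizontal), 1 point per gene with its SE in each line, for sterol enzymes, fatty acid genes, writer complex genes and immediate early genes. Most sterol enzymes lie above the dotted line of equal effects, with Msmo1 at 1.89 in TSC and 0.57 in EpiSC, and most immediate early genes lie below it.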

How the data were processed

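RNA-seq counts per gene are whole numbers and not normalized, as the authors deposited them. Per the submitters' processing notes the tools include FastQC, Trim Galore, STAR and featureCounts with the build GRCm39, and versions, annotation release and strand setting are not given in the sources used here. Gene names, exons and lengths came from GENCODE M21 (GRCm38), in which 3281 of 55416 identifiers had no match. Coordinates are given only for RefSeq promoters (GRCm38.p6). The 4 TSC libraries were fitted alone with edgeR 4.0.16 in R 4.3.3: TMM scaling, filterByExpr (minimum count 10, total 15), robust quasi-likelihood test, Benjamini-Hochberg adjustment over all tested genes. Differences between lines were interaction terms. The pipeline was tested on simulated data. Leaving out each library, DESeq2 1.42.0, a replicate block, joint fits, a fold minimum and changed scalings or filters were the alternatives. Members and lists were chosen with earlier results of these data known. Named genes were Mettl3, Xist, Tsix, members of the core lists, up to 5 called members of smallest p in each other list, and the largest or smallest-p changes among all genes, on the X chromosome and against EpiSC. Lists were described by counts, with no set test, and a few members are not reported here. Intervals for a count of 0 cover counting error only. Total counts per library set the precision.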

Additional observations from a re-analysis of the deposited data

Results flagged for a closer look

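The genes below are named in the results and had effects of STM2457 that differed between TSC and EpiSC in the edgeR interaction test (adjusted p under 0.05, 16140 genes tested). Values are the log2 fold change in TSC minus that in EpiSC. Among the sterol enzymes the differences were 1.32 for Msmo1, 1.02 for Fdps, 1.00 for Lss, 0.98 for Dhcr7, 0.83 for Acat2 and 0.82 for Nsdhl. Others of that list were 0.66 for Cyp51, 0.63 for Idi1, 0.63 for Tm7sf2, 0.61 for Sqle, 0.57 for Hmgcs1, 0.48 for Fdft1 and 0.46 for Mvd. In uptake and control they were 1.16 for Insig1, 0.49 for Srebf2 and 0.38 for Npc1. For fatty acid genes they were 1.54 for Slc27a2, 0.88 for Scd2, 0.81 for Fasn, 0.73 for Fads2, 0.61 for Scd1, 0.57 for Elovl6 and -0.55 for Slc33a1.

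In the m6A machinery the differences were 0.72 for Rbm15, 0.46 for Ythdc1 and 0.40 for Rbm15b. In signalling and the clock they were 1.00 for Fgfbp1, 0.69 for Lgr4, 0.45 for Fgfr1, 0.37 for Axin1, 0.36 for Socs6, -0.91 for the clock gene Bhlhe40, 0.36 for Ski and -0.56 for Ier2. Chromatin and stem cell genes gave 0.77 for Tet3, 0.52 for Sall4 and 0.50 for Ash1l. The differences were -0.89 for Krt19, -0.81 for Peg10, -0.64 for Cited2 and -0.68 for the epiblast marker Pou3f1. The p53 and cell cycle genes gave -0.61 for Bbc3, -0.41 for Pcna, -0.38 for Plk2 and -0.30 for Mcm7. RNA genes gave 0.43 for Neat1, 0.32 for Son, -0.34 for Srsf2 and -0.30 for Tardbp, and respiratory chain genes 0.39 for Sdhb, -0.54 for mt-Co1 and -0.71 for Lyrm7. Of the remaining genes Ap5b1 had 0.84, Rdh11 0.67, Loxl2 -1.01, Tmsb4x -0.56, Dgka -0.55 and Fam162a -0.51. The part that line, medium and genotype have in these differences was not tested. With 2 libraries per arm no single library was screened for standing apart from its group.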

How the results depend on the processing

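Of 4378 calls, DESeq2 made 2867 (2855 shared), the fold minimum of 1.5 left 61 and the fit over all 14 libraries 178. Leaving out 1 library gave 2268 to 5185. The other scalings, filters and fits stayed within 1.5 times. The TSC and EpiSC difference had 683 calls, 1 in the fit over all 14 libraries and 289 to 751 without 1 library. The XEN difference had 0 calls in edgeR and DESeq2, 3 with the replicate block, 1 in the 14-library fit and 0 without any 1 library. The X to autosome difference of -0.0711 was -0.0382 with the median in place of the mean and -0.0908 to -0.0513 without 1 library. The log2 fold changes that changed sign were Elf5 at 0.00274, Insig2 at 0.0286 and Srebf1 at 0.0583 with scaling to ribosomal protein genes. Without 1 library Mettl14 ran from -0.0738 to 0.0935 and Srebf1 from -0.0883 to 0.00826. The cause was not tested, except that the fold minimum is stricter by construction. Fits without 1 library hold fewer samples and take their spread from the pair of the other arm alone. The part of this in their counts was not tested. Libraries of the arms share only a replicate number: same-numbered libraries deviated with r = -0.17, the replicate block called 3945 genes (3876 shared), and a crossed replicate block, added after the data were seen, called 5417. Of 152 named calls, 17 were kept in every setting. The fold minimum lost 124, the 14-library fit 112 and ribosomal protein scaling 7, and outside these settings 136 were kept. With 2 libraries per arm and 2 residual degrees of freedom, the spread of any single gene is poorly known, and depth limits genes of a few counts such as Tsix.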

Other observations

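Members of several further lists went both ways in TSC. For the lists here and in the next paragraph the background over all tested genes was 16.3% rising and 13.9% falling. Of 19 Hippo and YAP genes 5 rose and 3 fell, with 2 and 1 without STM2457 replicate 1, 3 and 1 without replicate 2 and 4 and 5 without DMSO replicate 2. Of 17 BMP genes 4 rose and 4 fell, with 4 and 1 without STM2457 replicate 1 and 1 and 0 without replicate 2. Of 30 genes of amino acid sensing by mTORC1 6 rose and 7 fell. Rheb, the GTPase that activates the kinase, stood at 74.6 and 84.1 CPM with DMSO and 57.1 and 56.7 CPM with STM2457 (-0.48 ± 0.072, adjusted p = 5.12e-05), and Mios, of the GATOR complex, at 29.1 and 29.0 against 41.0 and 39.7 CPM (0.47 ± 0.080, adjusted p = 0.000165). Of 25 stress response genes 6 rose and 4 fell, with 1 riser without STM2457 replicate 1, 0 fallers without replicate 2 and 4 risers there. Scaled to ribosomal protein genes, 0 Hippo and YAP genes, 0 BMP genes, 2 mTORC1 genes and 1 stress response gene fell. Trib3, a target of that response, stood at 12.6 and 12.5 against 22.2 and 22.5 CPM (0.83 ± 0.10, adjusted p = 6.43e-06).

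Of 17 tested interferon response genes 4 rose and 0 fell, with Stat2 at 0.42 ± 0.084 (adjusted p = 0.000686), and leaving out either STM2457 library left 2, as did DESeq2. Of 17 deadenylase genes 3 fell and 0 rose, with 2 and 3 without DMSO replicate 1 and 2 and 2 when scaled to library totals or to ribosomal protein genes. Of 34 tested imprinted genes 3 rose and 6 fell, with 2 fallers and 0 risers without STM2457 replicate 2 and 2 risers without DMSO replicate 1 or STM2457 replicate 1. Without DMSO replicate 2, 9 fell, and with scaling to ribosomal protein genes 2 fell. Of 22 clock genes 3 rose and 0 fell, beside 16.3% and 13.9% of all tested genes. The repressor genes Nfil3, at 14.7 and 15.1 CPM with DMSO and 26.9 and 27.9 CPM with STM2457 (0.88 ± 0.098, adjusted p = 1.45e-06), and Bhlhe40 (0.29 ± 0.074, adjusted p = 0.00617) were among the clock genes that rose. Of 12 exon junction complex genes 0 rose and 3 fell, with 5 fallers without DMSO replicate 1, 1 without DMSO replicate 2, where 2 rose, 0 without STM2457 replicate 1, 1 without replicate 2 and 0 when scaled to library totals or to ribosomal protein genes. Of 8 SAM cycle genes 1 rose and 2 fell, with 5 fallers without DMSO replicate 1 and 0 on leaving out either STM2457 library. Of 11 other RNA methyltransferase genes 1 rose and 1 fell, with 3 fallers without DMSO replicate 1, 2 risers without DMSO replicate 2, 0 risers without STM2457 replicate 1 and 0 fallers without replicate 2.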
